A study of Mus musculus with 12 samples.

Results

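The collagen genes of mouse colon tumours were examined in bone marrow chimeras in which donor and recipient were each wild type or St2-/-. The genes were all rows of the count table whose symbol has the form of a collagen chain gene (Col, type number, a, chain number) and whose counts summed to at least 120 over the 12 libraries. Of the 24062 genes in the table, 44 had such a symbol, and 35 of these reached the minimum. They were sorted by collagen type into 10 fibrillar genes, 4 basement membrane genes of type IV and 21 genes of other types. Just inside the minimum lay Col10a1 with 165 counts, Col2a1 with 170 and Col4a3 with 171, and just outside it lay Col25a1 with 73. All 35 genes passed the filter on low counts (filterByExpr of edgeR), so none was lost before testing.

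All mice were Balb/c, either wild type (WT) or St2-/-. The latter lack the IL-33 receptor ST2 encoded by Il1rl1. All hosts were lethally irradiated in 2 doses, received WT or St2-/- marrow and had 8 weeks to reconstitute. All were then injected with azoxymethane (AOM), a carcinogen that induces colon tumours, once a week for 6 weeks, with tumours collected at 13 or 14 weeks from the last dose. The 4 groups, written as marrow => host, were WT => WT, St2-/- => WT, WT => St2-/- and St2-/- => St2-/-, with 3 libraries each, labelled as biological replicates. They came from 11 males and 1 female, WT => St2-/- replicate 3. No group was left without irradiation or without AOM, so neither could be compared here. In such chimeras the blood cells derive mainly from the marrow, while fibroblasts, endothelium, muscle and epithelium keep the genotype of the host. RNA came from whole tumour tissue, so fewer cells of a type and less RNA per cell cannot be told apart, and a collagen count cannot be assigned to a cell type.

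Collagens are secreted or membrane-bound trimers of alpha chains wound into a helix, and they form the bulk of the extracellular matrix. Fibrillar collagens (types I, III and V in soft tissue) assemble into the tension-bearing fibrils of the submucosa and of tumour stroma and are made mainly by fibroblasts. Type IV forms the sheet-like network of basement membranes under epithelium and around vessels and muscle cells. The remaining families decorate fibrils, form beaded filaments, anchor epithelium or span the cell membrane.

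Gene counts per library lay between 10293818 and 12962496. Il1rl1, the gene of the St2-/- allele, checked the host labels. It lay at 53.5, 133 and 275 CPM (read counts scaled to library size) in WT => WT tumours, 125, 36.5 and 193 in St2-/- => WT, 11.9, 25.0 and 7.30 in WT => St2-/- and 13.4, 7.91 and 10.8 in St2-/- => St2-/-. The lowest WT host, at 36.5 CPM, was above the highest St2-/- host, at 25.0 CPM, and the host difference on the log2 scale was -3.42 (SE 0.52, edgeR adjusted p = 0.00984). The marrow difference was -0.42 (SE 0.48, edgeR adjusted p = 0.999), so Il1rl1 did not check the marrow labels. The sample names of all WT hosts came from another numbering series than those of all St2-/- hosts, so a cohort effect and host genotype cannot be told apart. Markers fixed for 9 cell types were summed per library. Fibroblast markers (14 of 14 tested) summed to between 93.2 and 252 CPM, and smooth muscle markers (12 of 12) to between 301 and 3892 CPM. Smooth muscle sums were 1707 to 3892 CPM in 4 libraries, St2-/- => WT replicates 1 and 2 and WT => St2-/- replicates 2 and 3, and 301 to 613 CPM in the other libraries. Epithelial markers (10 of 10) summed to between 6017 and 16000 CPM, so each tumour sample held epithelium as well as stroma.

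Collagen genes took between 0.136% and 0.726% of the gene counts of a library, with a median of 0.348%. The share was 0.145%, 0.726% and 0.408% in WT => WT tumours, 0.355%, 0.136% and 0.340% in St2-/- => WT, 0.311%, 0.537% and 0.278% in WT => St2-/-, and 0.435%, 0.251% and 0.451% in St2-/- => St2-/-. The extremes thus lay within WT hosts, and the highest and the second lowest shares were libraries of the same group. Of the collagen counts, 43.2% to 57.1% fell on fibrillar genes, 19.6% to 26.9% on type IV and 20.5% to 32.0% on the other types. The 10 genes with the highest level per kilobase of exon held 79.5% to 89.5% of the collagen counts.

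By mean CPM per kilobase of exon over the 12 libraries, a scale on which genes can be compared, Col3a1 was highest at 126. It was followed by Col1a2 at 82.4, Col4a1 at 76.3, Col1a1 at 68.9 and Col4a2 at 53.3. Col6a1 at 37.4, Col18a1 at 35.5, Col6a2 at 20.5, Col5a2 at 18.1 and Col16a1 at 12.5 completed the highest 10. These are interstitial fibril chains, the main basement membrane pair, chains of beaded filaments, Col18a1 of basement membrane zones and a fibril-associated collagen. Col5a1 (11.0), Col9a2 (10.4), Col6a3 (9.17) and Col15a1 (8.32) came next, and the lowest were Col24a1 (0.200), Col22a1 (0.181) and Col4a3 (0.139). The order depends on the exon length used: with all annotated exons in place of those of transcripts paired with RefSeq, Col1a2 moved from rank 2 to rank 5, and Col16a1 from 10 to 12, behind Col5a1 and Col9a2.

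**Figure D1:**
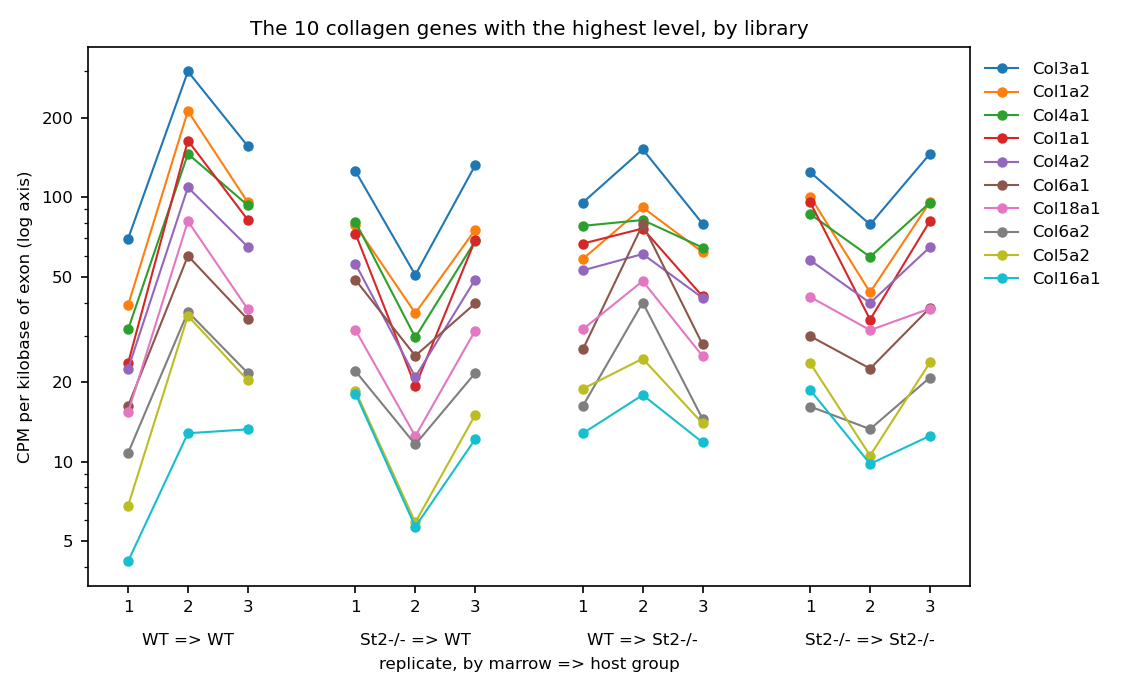
Level of the 10 highest collagen genes in each library, in CPM per kilobase of exon on a log axis, by replicate within each marrow => host group. Points are single libraries, and the lines only join the points of a gene within a group, since replicates have no order. All 10 were lowest or second lowest in WT => WT replicate 1, 7 of 10 were highest in WT => WT replicate 2, and Col6a1 and Col6a2 were highest in WT => St2-/- replicate 2.

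Among the fibrillar genes, Col3a1 (chr1:45311538-45349706, GRCm38) encodes the chain of type III collagen, which is abundant in the gut wall and vessels. It lay at 388, 1663 and 869 CPM in WT => WT tumours, 698, 283 and 734 in St2-/- => WT, 532, 845 and 442 in WT => St2-/- and 692, 439 and 812 in St2-/- => St2-/-. The lowest was St2-/- => WT replicate 2 and the highest WT => WT replicate 2, and all values of St2-/- hosts lay inside the range of WT hosts. Col1a1 (chr11:94936224-94953042) and Col1a2 (chr6:4504814-4541544) encode the chains of type I collagen, the main collagen of connective tissue. Col1a1 lay at 139.8, 972 and 487 CPM in WT => WT tumours, 432, 115 and 408 in St2-/- => WT, 396, 452 and 250.2 in WT => St2-/- and 567, 204 and 483 in St2-/- => St2-/-. Col1a2 lay at 209, 1133 and 512 CPM in WT => WT tumours, 419.5, 195 and 403 in St2-/- => WT, 312, 489 and 332 in WT => St2-/- and 538, 234 and 512 in St2-/- => St2-/-. For both, the same libraries as for Col3a1 were lowest and highest, and St2-/- hosts again lay inside the range of WT hosts. The host difference on the log2 scale was -0.25 (SE 0.36, 95% interval -1.05 to 0.54, adjusted p = 0.731) for Col3a1, -0.07 (SE 0.47, 95% interval -1.11 to 0.96, adjusted p = 0.944) for Col1a1 and -0.19 (SE 0.38, 95% interval -1.03 to 0.66, adjusted p = 0.823) for Col1a2 by edgeR. The intervals span 0 and reach about 1 log2 unit in the direction of lower levels, so these libraries do not show that the levels were alike.

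The RefSeq promoter windows (GRCm38.p6, 250 bases before to 50 after the start site, 5′ to 3′) of Col3a1, chr1:45311288-45311587 (plus strand), and Col1a2, chr6:4505368-4505667 (plus strand), are shown because both genes were lowest and highest in the same libraries. Capitals mark the CCAAT box, the TATA box (TATAAA) and the GC box (GGGCGG) on either strand, and no marked run overlapped another in the windows shown.
Col3a1: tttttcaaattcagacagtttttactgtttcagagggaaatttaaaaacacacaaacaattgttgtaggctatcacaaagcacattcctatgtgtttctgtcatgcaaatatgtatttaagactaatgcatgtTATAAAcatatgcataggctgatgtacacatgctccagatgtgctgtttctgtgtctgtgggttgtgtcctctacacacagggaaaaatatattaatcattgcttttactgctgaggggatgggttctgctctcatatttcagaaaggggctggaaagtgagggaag
Col1a2: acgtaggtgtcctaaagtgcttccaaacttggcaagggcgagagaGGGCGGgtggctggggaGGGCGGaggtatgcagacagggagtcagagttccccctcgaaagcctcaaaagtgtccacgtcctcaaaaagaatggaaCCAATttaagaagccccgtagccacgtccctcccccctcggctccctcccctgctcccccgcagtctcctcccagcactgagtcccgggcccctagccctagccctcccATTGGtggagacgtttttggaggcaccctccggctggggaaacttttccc
The Col3a1 window held 1 TATAAA and neither of the other motifs, with a GC content of 37.7%. The Col1a2 window held 2 CCAAT, 2 GGGCGG and no TATAAA, with a GC content of 61.0%. Over all 32851 RefSeq windows of this length, 37.4% held CCAAT, 13.6% TATAAA and 35.7% GGGCGG on either strand. Of the 27 collagen genes with a window, 10 held CCAAT, 5 TATAAA and 17 GGGCGG. A match is only a run of letters and shows no binding.

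Type V collagen is built into type I fibrils and limits their width. Col5a2 lay at 45.2, 236 and 135 CPM in WT => WT tumours, 123, 39.1 and 99.6 in St2-/- => WT, 125, 163 and 92.6 in WT => St2-/- and 156, 69.9 and 157 in St2-/- => St2-/-. Its extremes were the same libraries as for type I, and its host difference was 0.21 (SE 0.40, adjusted p = 0.807) by edgeR. Col5a1, the partner chain, ran from 37.7 to 173 CPM with a host difference of -0.02 (SE 0.35, adjusted p = 0.980), and Col5a3 from 6.26 to 69.8 CPM with 0.73 (SE 0.51, adjusted p = 0.447). The other fibrillar genes are known mainly from cartilage and bone and were low. Col27a1 lay at 6.53, 24.8 and 23.0 CPM in WT => WT tumours, 21.1, 12.9 and 21.2 in St2-/- => WT, 13.4, 161 and 19.5 in WT => St2-/- and 18.0, 16.8 and 24.9 in St2-/- => St2-/-. The value of WT => St2-/- replicate 2 was above all others, which lay between 6.53 and 24.9 CPM, and that library also had the highest smooth muscle sum and the lowest epithelial sum. Without it, the difference of Col27a1 between WT => St2-/- and WT => WT went from 1.84 to -0.14 on the log2 scale. Col2a1, the cartilage fibril chain, lay at 1.63, 3.48 and 1.11 CPM in WT => WT tumours, 0.603, 0.343 and 1.65 in St2-/- => WT, 0.762, 1.13 and 0.264 in WT => St2-/- and 0.841, 1.82 and 0.928 in St2-/- => St2-/-. These values rest on 170 counts in all, and every group overlapped the others. Col11a2 ran from 5.41 to 31.1 CPM and Col24a1 from 0.515 to 3.39 CPM.

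Among the basement membrane genes, Col4a1 and Col4a2 encode the chains of the common type IV trimer. They lie head to head, at chr8:11198423-11312826 on the minus strand and chr8:11312805-11449287 on the plus strand, with start sites 21 bases apart and 22 exon bases shared on opposite strands. Their RefSeq windows, chr8:11312777-11313076 (minus strand) and chr8:11312555-11312854 (plus strand), share 78 bases, chr8:11312777-11312854, and are shown because the genes were the most tightly tied of the chain pairs compared here.
Col4a1: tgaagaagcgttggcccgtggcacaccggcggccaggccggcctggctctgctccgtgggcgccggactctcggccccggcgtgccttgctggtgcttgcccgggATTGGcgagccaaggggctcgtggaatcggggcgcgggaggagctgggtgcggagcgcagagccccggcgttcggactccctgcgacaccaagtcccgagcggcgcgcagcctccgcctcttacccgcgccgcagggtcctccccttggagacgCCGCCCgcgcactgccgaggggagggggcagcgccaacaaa
Col4a2: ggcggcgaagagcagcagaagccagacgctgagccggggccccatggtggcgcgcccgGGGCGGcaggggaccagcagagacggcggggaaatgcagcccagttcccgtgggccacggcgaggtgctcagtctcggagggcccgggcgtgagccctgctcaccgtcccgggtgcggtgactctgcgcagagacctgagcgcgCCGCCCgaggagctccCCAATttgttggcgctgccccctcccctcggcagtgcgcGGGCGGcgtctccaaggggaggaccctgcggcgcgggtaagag
The shared bases held 1 GC box (GGGCGG, in capitals near the 3′ end of both) and no CCAAT. Each window held 1 CCAAT, which did not lie wholly inside the shared bases, and no TATAAA, and the GC content was 74.0% and 73.7%. Col4a1 lay at 209, 965 and 617 CPM in WT => WT tumours, 534, 195 and 452 in St2-/- => WT, 516, 543 and 427 in WT => St2-/- and 571, 394 and 631 in St2-/- => St2-/-. Col4a2 lay at 145, 703 and 419 CPM in WT => WT tumours, 361, 135 and 315 in St2-/- => WT, 341, 394 and 269 in WT => St2-/- and 373, 257 and 418 in St2-/- => St2-/-. St2-/- => WT replicate 2 and WT => WT replicate 1 were the lowest for both genes, and St2-/- hosts lay inside the range of WT hosts. The ratio of Col4a1 to Col4a2 per kilobase stayed between 1.34 and 1.55 in the 12 libraries, a spread of 1.16-fold, while the genes themselves varied 4.94-fold and 5.21-fold. The host difference on the log2 scale was 0.08 (SE 0.34, 95% interval -0.67 to 0.84, adjusted p = 0.915) for Col4a1 and 0.02 (SE 0.35, 95% interval -0.76 to 0.79, adjusted p = 0.982) for Col4a2 by edgeR.

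Col4a3 and Col4a5 encode chains of specialised basement membranes such as that of the kidney filter. Col4a5 (chrX:141475385-141689234) lay at 2.66, 5.12 and 4.70 CPM in WT => WT tumours, 10.2, 6.26 and 6.33 in St2-/- => WT, 3.72, 4.00 and 4.92 in WT => St2-/- and 4.43, 5.46 and 5.41 in St2-/- => St2-/-. The 3 St2-/- => WT values were the highest of all 12, and the other groups overlapped. Col4a5 differed between St2-/- and WT marrow by 0.57 (SE 0.23, 95% interval 0.07 to 1.07, adjusted p = 0.999) on the log2 scale by edgeR, with an unadjusted p of 0.0289, which did not pass the adjustment. Col4a3 lay at 1.72, 0.870 and 1.11 CPM in WT => WT tumours, 1.38, 0.772 and 1.21 in St2-/- => WT, 0.677, 0.957 and 0.967 in WT => St2-/- and 0.917, 1.82 and 1.86 in St2-/- => St2-/-, which is 171 counts in all.

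Among the other types, type VI collagen forms beaded filaments between fibrils and cells. Col6a1 (chr10:76708792-76726168) lay at 66.6, 246 and 142 CPM in WT => WT tumours, 199.7, 103 and 163 in St2-/- => WT, 109, 324 and 114 in WT => St2-/- and 122, 92.3 and 157 in St2-/- => St2-/-. Col6a2 lay at 64.8, 222 and 130.1 CPM in WT => WT tumours, 132, 69.9 and 130 in St2-/- => WT, 97.7, 240.3 and 87.3 in WT => St2-/- and 97.1, 79.8 and 125 in St2-/- => St2-/-. Both were highest in WT => St2-/- replicate 2, as were Col27a1, Col11a2 and Col24a1 among the fibrillar genes, and lowest in WT => WT replicate 1. The host difference was -0.03 (SE 0.36, adjusted p = 0.971) for Col6a1 and -0.05 (SE 0.34, adjusted p = 0.945) for Col6a2 by edgeR. Col6a3, the third chain of the classical trimer, ran from 43.0 to 189 CPM. Col6a4 and Col6a5 are alternative chains of type VI. Col6a4 lay at 17.3, 73.9 and 37.5 CPM in WT => WT tumours, 24.4, 24.0 and 35.0 in St2-/- => WT, 15.7, 44.2 and 19.4 in WT => St2-/- and 38.6, 29.8 and 50.0 in St2-/- => St2-/-. Col6a5 lay at 17.3, 57.5 and 11.9 CPM in WT => WT tumours, 9.22, 14.2 and 6.68 in St2-/- => WT, 4.49, 21.7 and 14.7 in WT => St2-/- and 11.7, 5.38 and 17.1 in St2-/- => St2-/-. For both, WT => WT replicate 2 was highest, and the groups overlapped.

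Col18a1 and Col15a1 encode the multiplexins, which sit in basement membrane zones and carry the endostatin-type end fragments. Col18a1 (chr10:77052178-77166548) lay at 89.4, 472 and 219.5 CPM in WT => WT tumours, 183, 72.6 and 182 in St2-/- => WT, 184, 280.2 and 146 in WT => St2-/- and 244, 183 and 221 in St2-/- => St2-/-. The highest was WT => WT replicate 2 and the lowest St2-/- => WT replicate 2, and the host difference was 0.10 (SE 0.37, adjusted p = 0.901) by edgeR. Col15a1 (chr4:47208161-47313167) lay at 22.8, 47.3 and 45.5 CPM in WT => WT tumours, 32.7, 15.0 and 33.4 in St2-/- => WT, 75.3, 59.2 and 59.0 in WT => St2-/- and 51.6, 29.0 and 45.2 in St2-/- => St2-/-. The 3 WT => St2-/- values were above all others, St2-/- => St2-/- overlapped WT hosts, and Col15a1 was the exception among genes with counts in every library in that its group means spread further (2.39-fold) than libraries within any group (2.23-fold). Its host difference was 0.69 (SE 0.25, 95% interval 0.14 to 1.24, adjusted p = 0.170) and its marrow difference -0.57 (SE 0.25, 95% interval -1.11 to -0.02, adjusted p = 0.999) by edgeR, both with an unadjusted p under 0.05 and neither past the adjustment. Endothelial markers (10 of 10 tested) summed to 139, 483 and 325 CPM in WT => WT tumours, 234, 177 and 272 in St2-/- => WT, 374, 464 and 422 in WT => St2-/- and 265, 283 and 377 in St2-/- => St2-/-, and their part in the Col15a1 values was not tested.

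The fibril-associated collagens with interrupted helices (FACIT) bind to the surface of fibrils. Col16a1 (chr4:130047840-130099283), the highest of them per kilobase with the main exon lengths, lay at 21.9, 66.8 and 69.0 CPM in WT => WT tumours, 94.2, 29.6 and 63.3 in St2-/- => WT, 66.7, 93.1 and 61.6 in WT => St2-/- and 97.2, 51.1 and 65.3 in St2-/- => St2-/-. WT => WT replicate 1 was lowest, St2-/- => St2-/- replicate 1 highest, and the host difference was 0.34 (SE 0.33, adjusted p = 0.596) by edgeR. Col9a2 and Col9a3 encode chains of type IX collagen, known from the surface of cartilage type II fibrils. Col9a2 (chr4:121039385-121055322) lay at 2.92, 6.38 and 15.8 CPM in WT => WT tumours, 4.22, 4.12 and 22.0 in St2-/- => WT, 13.7, 137 and 25.8 in WT => St2-/- and 46.5, 43.8 and 42.3 in St2-/- => St2-/-. The St2-/- => St2-/- values were close together and above all WT hosts, WT => St2-/- replicate 1 lay below WT => WT replicate 3 and St2-/- => WT replicate 3, and WT => St2-/- replicate 2 was highest. Its mean was 9.25 ± 7.83 CPM (SD, n = 6) in WT hosts and 51.6 ± 43.9 CPM (SD, n = 6) in St2-/- hosts. The host difference on the log2 scale was 2.47 (SE 0.66, 95% interval 1.00 to 3.93, adjusted p = 0.10) by edgeR, the largest of the 35 genes and not past the threshold of 0.05. Its RefSeq window, chr4:121039316-121039615 (plus strand), is shown as that of the gene with the largest host difference, with capitals for the same motifs.
Col9a2: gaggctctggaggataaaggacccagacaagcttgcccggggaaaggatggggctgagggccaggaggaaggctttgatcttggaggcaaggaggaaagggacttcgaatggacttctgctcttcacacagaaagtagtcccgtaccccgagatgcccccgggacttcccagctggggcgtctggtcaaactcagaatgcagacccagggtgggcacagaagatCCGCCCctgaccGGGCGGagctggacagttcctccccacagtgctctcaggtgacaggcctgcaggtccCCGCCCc
It held 3 GGGCGG on either strand, no CCAAT and no TATAAA, with a GC content of 61.7%.

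The smooth muscle sum was 410 CPM in WT => St2-/- replicate 1, 3892 in replicate 2 and 1843 in replicate 3. It was 301 to 613 CPM in St2-/- => St2-/-, where Col9a2 was at 46.5, 43.8 and 42.3 CPM. In St2-/- => WT it was 3179, 1707 and 610 CPM, with Col9a2 at 4.22, 4.12 and 22.0 CPM. In WT => WT it was 306.2 to 583.5 CPM, with Col9a2 at 2.92, 6.38 and 15.8 CPM. The part of muscle in the Col9a2 values was not tested. With a smooth muscle score as a covariate, the Col9a2 host difference was 2.18 (edgeR adjusted p = 0.116), and without WT => St2-/- replicates 2 and 3 it was 1.42 (adjusted p = 0.409). Col9a3 (chr2:180597790-180622189) lay at 3.35, 5.02 and 11.7 CPM in WT => WT tumours, 6.64, 2.74 and 8.67 in St2-/- => WT, 8.89, 13.8 and 6.50 in WT => St2-/- and 15.8, 9.97 and 20.4 in St2-/- => St2-/-. It was highest in St2-/- => St2-/- replicate 3 and lowest in St2-/- => WT replicate 2, the hosts overlapped, and the host difference was 0.95 (SE 0.38, 95% interval 0.11 to 1.79, adjusted p = 0.204) by edgeR. Of its exon bases, 230 overlap Tcfl5 on the opposite strand, and the strand setting of the counting is not stated in the labels or the file, so its counts may include reads of Tcfl5. Col20a1 (chr2:180986535-181018363) lay at 11.7, 3.48 and 10.8 CPM in WT => WT tumours, 16.4, 20.3 and 12.8 in St2-/- => WT, 13.5, 29.2 and 22.3 in WT => St2-/- and 16.1, 14.2 and 22.3 in St2-/- => St2-/-. WT => WT replicate 2 was lowest, all WT => WT values lay below the other groups, and the host difference was 0.70 (SE 0.30, 95% interval 0.04 to 1.36, adjusted p = 0.221) by edgeR.

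Col12a1 and Col14a1 encode FACITs of type I fibrils. Col12a1 ran from 13.5 to 75.9 CPM with a host difference of 0.29 (SE 0.40, adjusted p = 0.724). Col14a1 lay at 3.35, 13.3 and 8.68 CPM in WT => WT tumours, 38.9, 6.86 and 5.72 in St2-/- => WT, 3.22, 3.65 and 7.82 in WT => St2-/- and 14.4, 5.62 and 13.5 in St2-/- => St2-/-. St2-/- => WT replicate 1 was highest, and the marrow difference was 1.10 (SE 0.54, adjusted p = 0.999) by edgeR. Without that library it was 0.38. Col22a1, a FACIT of tissue junctions, lay at 0.773, 5.51 and 1.27 CPM in WT => WT tumours, 1.55, 0.257 and 1.91 in St2-/- => WT, 0.931, 1.22 and 0.703 in WT => St2-/- and 1.38, 1.35 and 2.24 in St2-/- => St2-/-, which is 222 counts in all.

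Col23a1, Col17a1 and Col13a1 encode transmembrane collagens. Col23a1 (chr11:51289920-51583918) lay at 2.15, 4.73 and 3.58 CPM in WT => WT tumours, 7.67, 1.89 and 4.51 in St2-/- => WT, 9.73, 49.2 and 1.93 in WT => St2-/- and 13.2, 17.4 and 6.34 in St2-/- => St2-/-. WT => St2-/- replicate 2 was highest, replicate 3 of the same group was among the lowest of all, and the host difference was 1.97 (SE 0.66, 95% interval 0.51 to 3.42, adjusted p = 0.151) by edgeR. Without WT => St2-/- replicate 2 it was 1.07 (adjusted p = 0.336). It was 1.89 (adjusted p = 0.132) with the smooth muscle score as a covariate and 0.54 (adjusted p = 0.564) by limma-voom with quality weights. Col17a1, a hemidesmosome protein of epithelial cells, ran from 2.78 to 34.8 CPM, and Col13a1 from 0.687 to 4.87 CPM. Col7a1 (chr9:108953586-108984875) forms the anchoring fibrils that hold epithelium to the matrix, and it lay at 3.61, 18.7 and 9.87 CPM in WT => WT tumours, 8.70, 4.46 and 11.4 in St2-/- => WT, 15.7, 26.9 and 10.8 in WT => St2-/- and 21.5, 37.4 and 9.05 in St2-/- => St2-/-. The hosts overlapped, and its host difference was 1.10 (SE 0.45, 95% interval 0.10 to 2.10, adjusted p = 0.213) by edgeR. Col8a1 and Col10a1, the short-chain network collagens, ran from 2.45 to 9.58 CPM and from 0 to 4.41 CPM, and Col10a1 had no count in WT => WT replicates 1 and 3. Col28a1 lay at 3.26, 1.84 and 2.31 CPM in WT => WT tumours, 3.02, 2.49 and 1.04 in St2-/- => WT, 1.19, 2.78 and 2.37 in WT => St2-/- and 1.53, 0.633 and 1.47 in St2-/- => St2-/-, which is 282 counts in all.

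Chains that share a trimer differed in how closely they kept their ratio. The ratio of Col1a1 to Col1a2 per kilobase ran from 0.53 to 1.14, a 2.16-fold spread, with the lowest value in St2-/- => WT replicate 2 and the highest in WT => St2-/- replicate 1. It was 0.604, 0.773 and 0.858 in WT => WT tumours, 0.929, 0.530 and 0.913 in St2-/- => WT, 1.14, 0.833 and 0.680 in WT => St2-/- and 0.950, 0.788 and 0.850 in St2-/- => St2-/-, so that all groups overlapped. The libraries with the least collagen had the lowest ratios. Col3a1 and Col1a1 are chains of different types, III and I, that do not share a trimer. Their ratio, with Col1a1 as the denominator, ran from 1.30 in St2-/- => St2-/- replicate 1 to 2.96 in WT => WT replicate 1. Col5a1 to Col5a2 and Col6a1 to Col6a2 each spread 1.47-fold, and Col6a1 to Col6a3 spread 2.45-fold, from 2.59 in WT => St2-/- replicate 1 to 6.34 in St2-/- => WT replicate 2. The ratio of Col6a1 to Col6a3 was 4.74, 6.34, 6.27 and 5.42 in the 4 libraries with high smooth muscle sums and 2.59 to 4.11 in the others, and the part of muscle in it was not tested.

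**Figure D2:**
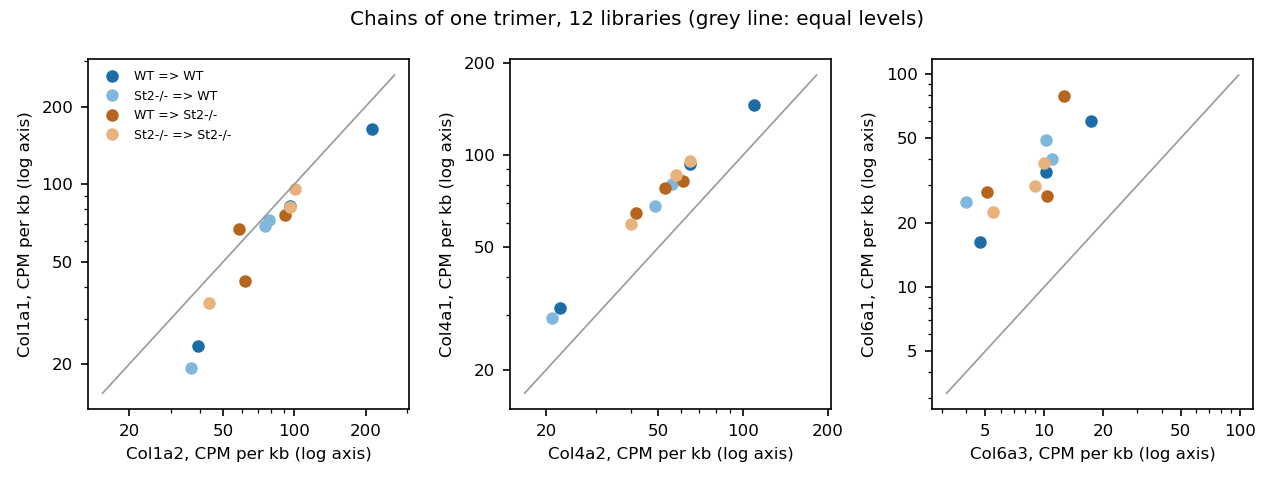
Levels of paired chains in the 12 libraries, in CPM per kilobase of exon on log axes, with Col1a1 against Col1a2, Col4a1 against Col4a2 and Col6a1 against Col6a3. Each point is a library, coloured by group, and the grey line marks equal levels. The Col4a1 and Col4a2 points follow a line, with ratios of 1.34 to 1.55, while Col6a1 to Col6a3 ran from 2.59 to 6.34.

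The spread within groups was large for these genes. In 33 of 34 collagen genes with counts in every library, the largest ratio between libraries of a group exceeded the ratio of the highest to the lowest group mean. That was also so for 13310 of 14768 tested genes with counts in every library. The sizes were larger for the collagen genes, with a median largest ratio within a group of 4.68 against 1.83 over all such genes, and a median ratio of group means of 1.82 against 1.37. St2-/- => WT replicate 2 was the lowest library for 15 of the 35 genes and WT => WT replicate 1 for 10, while WT => WT replicate 2 was the highest for 14 and WT => St2-/- replicate 2 for 9. Summed over a class, fibrillar genes lay at 851, 4257 and 2199 CPM in WT => WT tumours, 1851, 700.3 and 1806 in St2-/- => WT, 1544, 2330 and 1239 in WT => St2-/- and 2160, 1058 and 2156 in St2-/- => St2-/-. Type IV genes summed to 358, 1674 and 1042 CPM in WT => WT tumours, 906, 337 and 774 in St2-/- => WT, 861, 941 and 702 in WT => St2-/- and 949, 658 and 1056 in St2-/- => St2-/-, and the other types to 408, 1531 and 913 CPM in WT => WT tumours, 936, 442 and 873 in St2-/- => WT, 808, 1539 and 692 in WT => St2-/- and 985, 734 and 999 in St2-/- => St2-/-. The lowest and highest libraries differed 6.08-fold for fibrillar genes, 4.96-fold for type IV and 3.77-fold for the others. Epithelial sums were highest in the 2 libraries with the least collagen, at 16000 CPM in St2-/- => WT replicate 2 and 14410 CPM in WT => WT replicate 1. The fibroblast sum was lowest in WT => WT replicate 1, at 93.2 CPM. In St2-/- => WT replicate 2 it was 132 CPM, above the 116 CPM of WT => St2-/- replicate 1. The part of tissue make-up in the collagen values was not tested. Il1rl1 was also lowest among WT hosts in the 2 libraries with the least collagen.

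**Figure D3:**
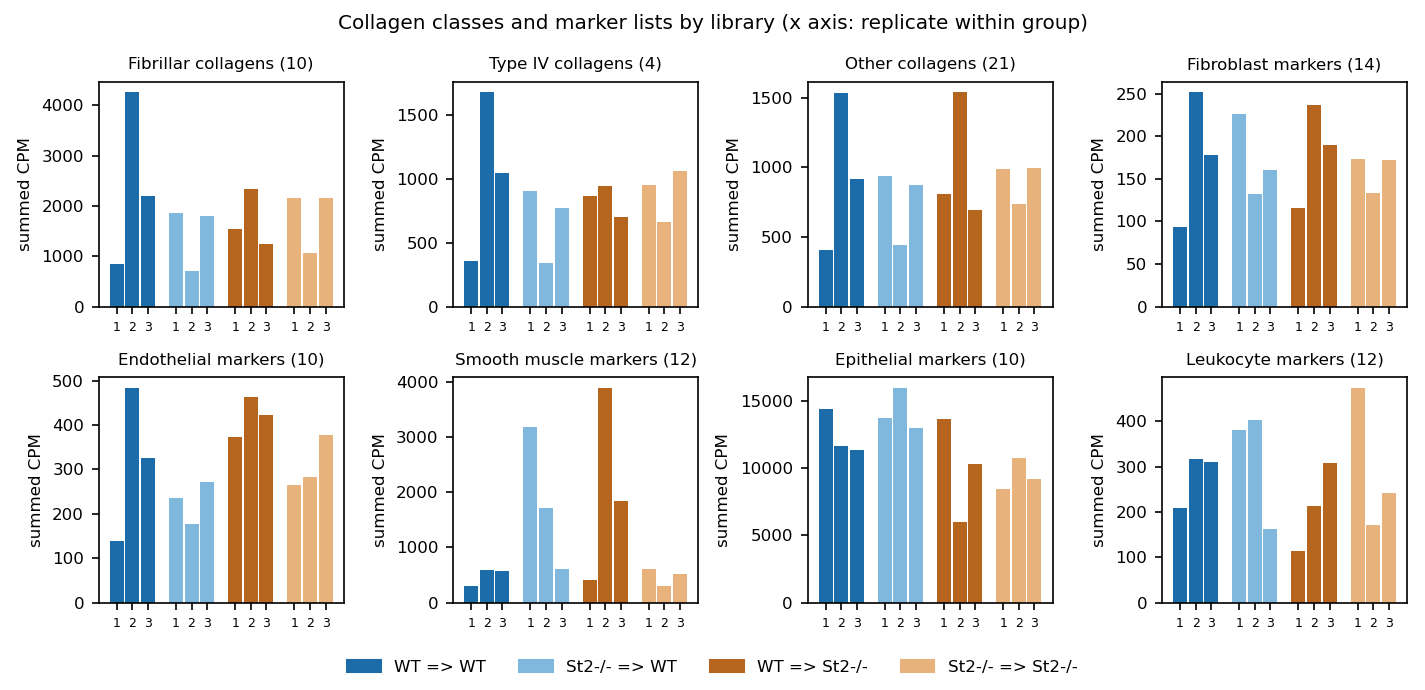
Summed CPM of the collagen classes and of 5 marker lists in each library, with bars from 0, by replicate within group and coloured by group. The number of genes summed stands in each title. Collagen sums were lowest in St2-/- => WT replicate 2 and WT => WT replicate 1, where fibrillar genes summed to 700 and 851 CPM, and smooth muscle sums stood out in 4 libraries of 2 groups.

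The host comparison, averaged over marrows, asked whether tumours of St2-/- hosts differed from those of WT hosts in collagen expression. None of the 35 genes passed (0 of 35, edgeR adjusted p under 0.05), beside 1.37% of all 15060 genes tested. DESeq2 passed 2, Col9a2 and Col23a1, beside 7.94% of all genes, and limma-voom passed 1, Col9a2, beside 12.2%, so neither share of the 35 was above its background. By edgeR 1 of the 35, Col9a2, passed without St2-/- => WT replicate 3, beside 1.97% of all genes, and without WT => St2-/- replicate 1, beside 3.15%. With an unadjusted p under 0.05 there were 6 genes, or 17.1%, against 20.6% of all genes, so the share was not above the background. All 6 were higher in St2-/- hosts, beside 9.81% of all genes that were higher at this p, and all were of the other types: Col9a2, Col23a1, Col15a1, Col9a3, Col7a1 and Col20a1. The log2 difference was above 0 for 20 genes and below 0 for 15, with a median of 0.10 against -0.0015 over all genes tested and a range of -0.70 to 2.47. By class, 5 of 10 fibrillar genes, 2 of 4 type IV genes and 13 of 21 others were above 0, with medians of 0.10, -0.0073 and 0.34. The libraries of WT and St2-/- hosts overlapped in CPM for all 35 genes, where 2.68% of all genes tested did not overlap.

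**Figure D4:**
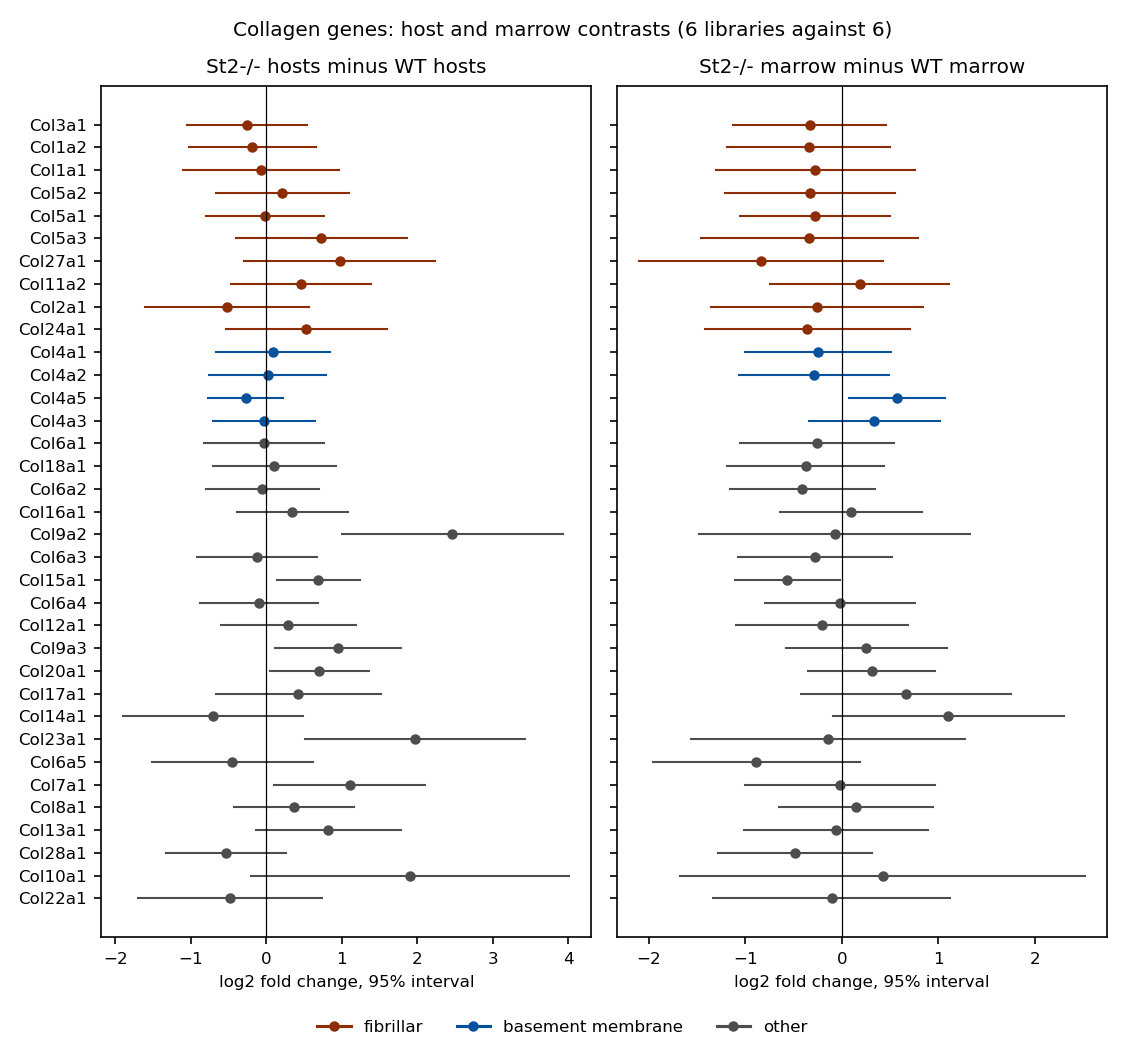
Log2 differences of the 35 collagen genes with 95% intervals, between St2-/- and WT hosts and between St2-/- and WT marrow, each over 6 libraries against 6. Genes are ordered by level within class, and points are edgeR estimates. The interval excluded 0 for 6 genes of the other types between hosts, and for Col4a5 and Col15a1 between marrows, with none past the adjusted threshold.

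**Figure D5:**
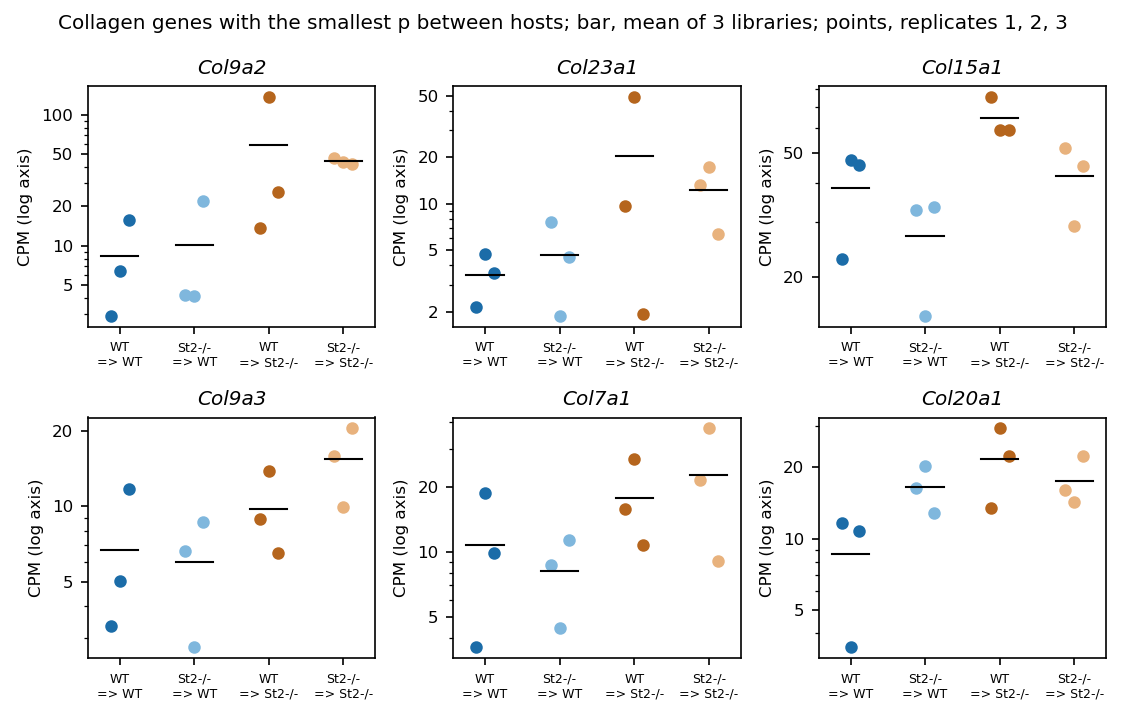
CPM on a log axis of the 6 collagen genes with the smallest p between hosts, with points for single libraries by group and bars for the mean of 3. Col9a2 in St2-/- => St2-/- lay between 42.3 and 46.5 CPM, above all WT hosts, whereas the WT => St2-/- values ran from 13.7 to 137 CPM.

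Within WT marrow, WT => St2-/- against WT => WT, 0 of 35 genes passed by edgeR, beside 0.159% of all genes. DESeq2 passed 1, Col9a2, beside 4.95% of all genes, and limma-voom 0, beside 2%. An unadjusted p under 0.05 was found for 4 genes, against 16.7% of all genes, and these were Col20a1 at 1.32 (SE 0.43, adjusted p = 0.189), Col9a2 at 2.81 (SE 0.95, adjusted p = 0.198), Col23a1 at 2.54 (SE 0.95, adjusted p = 0.232) and Col27a1 at 1.84 (SE 0.83, adjusted p = 0.297) by edgeR. Without WT => St2-/- replicate 2, Col9a2 was at 1.23 and Col23a1 at 0.74, and Col27a1 turned to -0.14. The main interstitial chains had values below 0, with -0.68 (SE 0.51, adjusted p = 0.517) for Col3a1, -0.71 (SE 0.54, adjusted p = 0.528) for Col1a2 and -0.54 (SE 0.66, adjusted p = 0.706) for Col1a1. This comparison holds WT => WT replicate 2, the library with the most collagen, where Col3a1 lay at 1663 CPM. Col3a1 lay at 388 and 869 CPM in the other WT => WT libraries and at 442 to 845 CPM in WT => St2-/-. Within St2-/- marrow, St2-/- => St2-/- against St2-/- => WT, 0 of 35 passed by edgeR, beside 0.0598% of all genes. DESeq2 passed 0, beside 1.74% of all genes, and limma-voom 2, Col9a2 and Col9a3, beside 12.9%, which is below that background. An unadjusted p under 0.05 was found for 3, Col9a3 at 1.36 (SE 0.54, adjusted p = 0.390), Col9a2 at 2.13 (SE 0.93, adjusted p = 0.409) and Col7a1 at 1.47 (SE 0.65, adjusted p = 0.412), against 12% of all genes, and the next was Col15a1 at 0.63 (SE 0.35, adjusted p = 0.477). Without St2-/- => St2-/- replicate 2, Col7a1 was at 0.90, without St2-/- => WT replicate 2 Col15a1 was at 0.36, and without St2-/- => WT replicate 3 Col9a2 was at 3.40. Here 29 of 35 genes and 10 of 10 fibrillar genes had values above 0, with a median of 0.43 for both. Of all genes tested 50.4% were above 0, with a median of 0.0031. St2-/- => WT replicate 2, the library with the least collagen, is in this comparison. Col1a1 was at 0.39 (SE 0.66, adjusted p = 0.834) and Col3a1 at 0.18 (SE 0.51, adjusted p = 0.911).

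The marrow comparison, averaged over hosts, asked the same of St2-/- and WT marrow. By edgeR 0 of 35 genes passed, beside 0% of all genes, with DESeq2 and limma-voom also at 0 of the 35 and 0% of all genes. An unadjusted p under 0.05 was found for 2, against 2.76% of all genes: Col4a5, higher with St2-/- marrow, and Col15a1, lower. Of the 35 genes 25 had values below 0, including 9 of 10 fibrillar genes, with a median of -0.25 against -0.0036 over all genes. Col3a1 was at -0.34 (SE 0.36, adjusted p = 0.999), Col1a1 at -0.28 (SE 0.47, adjusted p = 0.999) and Col4a1 at -0.25 (SE 0.34, adjusted p = 0.999), and Col6a5 at -0.89 (SE 0.49, adjusted p = 0.999) by edgeR. These fibrillar values turned on the library with the most collagen: without WT => WT replicate 2, Col1a1 was at 0.11 and Col3a1 at -0.020, and Col6a5 was at -0.40. Endothelial markers were above 0 for 0 of 10 genes in this comparison, with a median of -0.46, and fibroblast markers for 5 of 14, with -0.10, and 0 of either passed. Their part in the collagen values was not tested.

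Within WT hosts, St2-/- => WT against WT => WT, 0 of 35 passed by edgeR, beside 0% of all genes, and both were also 0 by DESeq2 and by limma-voom. Col4a5 at 0.87 (SE 0.32, adjusted p = 0.798) was the only gene with an unadjusted p under 0.05, against 6.04% of all genes, and the next were Col6a5 at -1.52 (SE 0.70, adjusted p = 0.798), Col20a1 at 0.93 (SE 0.43, adjusted p = 0.798) and Col2a1 at -1.25 (SE 0.69, adjusted p = 0.810). Without WT => WT replicate 2, Col6a5 was at -0.54, Col20a1 at 0.55 and Col2a1 at -0.66, and without St2-/- => WT replicate 3 Col2a1 was at -2.10. Fibrillar genes were below 0 for 8 of 10, with a median of -0.61. Of all genes tested 52.0% were above 0, with a median of 0.014. This comparison holds the libraries with the most and the least collagen, WT => WT replicate 2 and St2-/- => WT replicate 2. Within St2-/- hosts, St2-/- => St2-/- against WT => St2-/-, 0 of 35 passed by edgeR, beside 0% of all genes, with 0 by DESeq2, beside 0.113%, and 0 by limma-voom, beside 0.0266%. No gene had an unadjusted p under 0.05 (0 of 35, against 4.05% of all genes), and the smallest p were those of Col27a1 at -1.70 (SE 0.82, adjusted p = 0.995), Col4a3 at 0.81 (SE 0.44, adjusted p = 0.995), Col15a1 at -0.62 (SE 0.35, adjusted p = 0.995) and Col14a1 at 1.19 (SE 0.77, adjusted p = 0.995). Col27a1 again turned on WT => St2-/- replicate 2, without which its value was 0.28.

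With the receptor lacking in both compartments, St2-/- => St2-/- against WT => WT, 0 of 35 passed by edgeR, beside 0.0266% of all genes, with 0 by DESeq2, beside 3.14%, and 1, Col9a2, by limma-voom, beside 11.2%. An unadjusted p under 0.05 was found for 3, against 13.7% of all genes: Col9a2 at 2.39 (SE 0.94, adjusted p = 0.309), Col20a1 at 1.01 (SE 0.43, adjusted p = 0.335) and Col9a3 at 1.20 (SE 0.54, adjusted p = 0.360). Without WT => WT replicate 2 Col20a1 was at 0.64, and without WT => WT replicate 3 Col9a3 was at 1.88. Col28a1, a collagen known from peripheral nerve, was at -1.02 (SE 0.52, adjusted p = 0.405), and Col3a1 and Col1a1 were at -0.59 (SE 0.51, adjusted p = 0.621) and -0.35 (SE 0.66, adjusted p = 0.833). WT => WT replicate 2, the library with the most collagen, is in this comparison too. For the interaction, the host difference with St2-/- marrow minus that with WT marrow, 0 of 35 passed by edgeR, beside 0% of all genes, with 0 by DESeq2, beside 0.618%, and 0 by limma-voom, beside 0.0266%. No gene had an unadjusted p under 0.05 (0 of 35, against 7.6% of all genes). The smallest p were those of Col20a1 at -1.23 (SE 0.60, adjusted p = 0.666), Col2a1 at 1.97 (SE 0.99, adjusted p = 0.671), Col6a4 at 1.21 (SE 0.71, adjusted p = 0.696) and Col22a1 at 1.80 (SE 1.11, adjusted p = 0.717). Without WT => WT replicate 2, Col6a4 was at 0.56 and Col22a1 at 0.53. The comparisons share groups, so their values for a gene are not independent.

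Genes that make, modify, bind or accompany collagen were counted in the host comparison from fixed lists. In each list 0 genes passed by edgeR, beside 1.37% of all genes tested. Of 32 genes of collagen synthesis and crosslinking, 31 were tested and 17 were above 0, with a median log2 difference of 0.05. P4hb, a subunit of prolyl 4-hydroxylase, was at -0.34 (SE 0.10, adjusted p = 0.113), Leprel4 at 0.66 (SE 0.28, adjusted p = 0.224) and Ppib, a collagen-folding isomerase, at -0.17 (SE 0.08, adjusted p = 0.232). The summed level of this list spread 1.52-fold over the libraries, against 5.04-fold for the collagen genes. Such a sum follows its most abundant genes and does not give the spread of each gene. Of 10 collagen receptors 9 were tested and 5 were above 0, with Lair1, an inhibitory receptor of leukocytes, at -0.64 (SE 0.26, adjusted p = 0.207) and the integrin chain gene Itga2 at 0.86 (SE 0.47, adjusted p = 0.322). Of 18 fibril partners 17 were tested and 9 were above 0, with Thbs1 at 0.56 (SE 0.24, adjusted p = 0.227), Aspn at 0.96 (SE 0.46, adjusted p = 0.265) and fibronectin (Fn1) at 0.45 (SE 0.36, adjusted p = 0.511). Their sum spread 3.64-fold, with the lowest and highest in WT => WT replicates 1 and 2. Of 18 basement membrane partners 17 were tested and 10 were above 0, with the laminin chain gene Lamb2 at 0.78 (SE 0.22, adjusted p = 0.104) and Dag1 at -0.26 (SE 0.17, adjusted p = 0.405), beside Col4a1 at 0.08. Of 17 genes of the TGF-beta pathway, a main inducer of collagen transcription, all were tested and 11 were above 0, with Tgfbr1 at 0.25 (SE 0.08, adjusted p = 0.126) and Tgfb2 at 0.93 (SE 0.41, adjusted p = 0.231).

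Of the marker lists, 0 genes passed between hosts by edgeR, beside 1.37% of all genes tested. Endothelial markers were above 0 for 10 of 10 genes, with a median of 0.50, and with Vwf at 0.77 (SE 0.21, adjusted p = 0.10). Pericyte markers were above 0 for 6 of 8, with a median of 0.53, fibroblast markers for 8 of 14 with 0.25, smooth muscle markers for 10 of 12 with 0.13, and enteric glia and neuron markers for 6 of 10 with 0.18. The latter lists had opposite signs within the marrows. Smooth muscle markers were above 0 for 12 of 12 genes within WT marrow, with a median of 2.44, and for 0 of 12 within St2-/- marrow, with -2.05. Glia and neuron markers were above 0 for 10 of 10 within WT marrow, with 2.80, and for 0 of 10 within St2-/- marrow, with -2.84. Their part in the collagen differences within a marrow was not tested. Epithelial markers were above 0 for 0 of 10, with a median of -0.49, and Krt20 was at -1.67 (SE 0.47, adjusted p = 0.105). Leukocyte markers were above 0 for 4 of 12, with a median of -0.42, with Cd8a at -2.45 (SE 0.60, adjusted p = 0.0793), the mast cell gene Cpa3 at 1.52 (SE 0.54, adjusted p = 0.164) and Cd68 at -0.55 (SE 0.22, adjusted p = 0.207). Mesothelial and adipocyte lists had 2 and 1 tested genes. Epithelial sums lay between 11370 and 16000 CPM in WT hosts and between 6017 and 13720 CPM in St2-/- hosts, and their part in the collagen values was not tested.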

How the data were processed

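Libraries of 12 mouse colon tumours were prepared with a TruSeq RNA kit and read single-end at 50 bases, per the labels' protocols. The submitters' processing notes name TopHat, Bowtie2 and GRCm38 (mm10). The tool versions, the counting tool, its strand setting and the annotation are not given in these sources. The authors deposited raw gene-level read counts for 24062 genes, with 5 further lines of unassigned reads. These lines held 49.8% to 53.2% of a library's total in WT hosts and 52.3% to 59.6% in St2-/- hosts. They entered neither library sizes nor tests.

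The analysis used edgeR 4.0.16 in R 4.3.3. The filter filterByExpr (minimum count 10) kept 15060 genes. TMM factors lay between 0.899 and 0.986 in WT hosts and between 0.968 and 1.12 in St2-/- hosts. A robust quasi-likelihood model with 1 coefficient per group, and 8 residual degrees of freedom, gave all comparisons as contrasts. Tests were two-sided, p-values were adjusted by Benjamini-Hochberg over all 15060 genes, and a gene was called under 0.05. The label biological replicate does not say whether tumours shared a litter or cage. Levels per kilobase used exons of GENCODE M21 transcripts paired with RefSeq, and positions are from GENCODE M21 on GRCm38. Intervals of fold changes are 95% intervals. The edgeR step was tested on simulated data.

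The collagen genes, partner and marker lists, tests and the rule for named genes were chosen with earlier results of these data known. Values in every library were given for the 10 genes highest per kilobase, the top 2 of each class, and the 4 with the smallest p in each comparison. From the other lists up to 3 genes with the smallest p between hosts were eligible to be named. Alternatives were DESeq2 1.42.0, its size factors, limma 3.58.1 (voom with quality weights), other filters, a block for the replicate number, a covariate for weeks after AOM or for a smooth muscle score, only the 2 groups compared, each library left out, and WT => St2-/- replicates 2 and 3 left out together. Tables were made with Python 3.11.15.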

Additional observations from a re-analysis of the deposited data

How the results depend on the processing

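The count of collagen genes past the threshold was 0 in all comparisons by edgeR. For the host comparison averaged over marrows it was 2 by DESeq2 (Col9a2 and Col23a1, beside 7.94% of all genes) and 1 by limma-voom (Col9a2, beside 12.2%), and between 0 and 1 when a library was left out. Col9a2 passed without St2-/- => WT replicate 3 (log2 difference 3.10, edgeR adjusted p = 0.0494, with 1.97% of all genes called) and without WT => St2-/- replicate 1 (2.71, adjusted p = 0.0480, with 3.15% called), and over the other libraries its value ran down to 1.68. Within WT marrow the count was 1 by DESeq2 (4.95% of all genes), within St2-/- marrow 2 by limma-voom (12.9%), and for St2-/- => St2-/- against WT => WT 1 by limma-voom (11.2%). The cause of these differences between tools was not tested.

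Of 52 log2 differences followed over 22 settings, 35 kept their sign in all. Leaving out 1 library turned or moved 37 of the 52 by over 1.5 times on the log2 scale, among them 8 of the 17 with an unadjusted p under 0.05. The differences that did not keep their sign had values near 0 or turned on single libraries. Over the libraries left out, the host difference ran from -0.11 to 0.35 for Col4a1, -0.18 to 0.31 for Col4a2, -0.29 to 0.31 for Col1a1, -0.38 to 0.20 for Col1a2, -0.43 to 0.062 for Col3a1, -0.090 to 0.48 for Col18a1, -0.38 to 0.24 for Col6a1 and -0.36 to 0.20 for Col6a2. The marrow difference ran from -0.46 to 0.017 for Col4a1, -0.51 to 0.0011 for Col4a2, -0.51 to 0.11 for Col1a1, -0.56 to 0.046 for Col1a2, -0.11 to 0.25 for Col16a1, -0.59 to 0.0013 for Col18a1 and -0.45 to 0.092 for Col6a1. Col27a1 ran from -0.14 to 2.33 between WT => St2-/- and WT => WT and from -2.19 to 0.28 between St2-/- => St2-/- and WT => St2-/-. Without WT => St2-/- replicates 2 and 3 these became -0.44 and 0.57, and the second was 0.16 with the smooth muscle score as a covariate. The Col6a1 marrow difference of -0.26 became 0.16 by limma-voom and 0.11 without those replicates. The cause of these reversals was not tested.

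Replicate numbers did not pair the samples. Of 18 pairs with the same number, correlations of deviations from group means ran from -0.44 to 0.31, and 5 were above 0.1. For 1 of 12 libraries the best match had its own number. With the replicate block, 0 collagen genes passed in any comparison, as without it, and the Col9a2 host difference was 2.67 (edgeR adjusted p = 0.112).

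The largest ratio between the 3 libraries of a group had a median of 4.68 over collagen genes with counts in every library. Between hosts, averaged over marrows, the edgeR interval ran from -1.05 to 0.54 log2 units for Col3a1 and from -1.105 to 0.956 for Col1a1. A doubling in St2-/- hosts lay outside both intervals, and a fall by the same factor lay inside both. Within St2-/- marrow the host intervals ran from -0.945 to 1.305 for Col3a1 and from -1.066 to 1.853 for Col1a1. A doubling was not excluded there. Collagen genes near the minimum, such as Col10a1 (165 counts) and Col2a1 (170 counts), were limited by counting error as well.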

Other observations

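The 9 collagen genes under the minimum of 120 counts were not among the 35 genes, and their differences are not given here. Summed over libraries, Col25a1, a transmembrane collagen, had 27 counts in WT hosts and 46 in St2-/- hosts, and Col9a1, the partner chain of Col9a2 and Col9a3 in type IX collagen, had 17 and 31. Col8a2, the partner of Col8a1, had 10 and 35, and Col4a4, the partner of Col4a3, had 10 and 28. Col26a1 had 5 and 16 counts, Col4a6 11 and 3, Col6a6 9 and 8, Col11a1 6 and 9 and Col19a1 5 and 6.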
